A study of Mus musculus with 8 samples.

Results

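The annexins are a family of proteins that bind membranes carrying phosphatidylserine and other acidic phospholipids when calcium rises. They share a conserved core and differ in their N-terminal tails, which bind partners such as the small S100 proteins. In inflamed tissue they are known as mediators of the resolution of inflammation (Anxa1), of plasminogen activation at the cell surface (Anxa2), of the recognition of dying cells (Anxa5) and of the repair of torn membranes. In the nervous system several of them are made by activated microglia, infiltrating leukocytes and astrocytes.

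The family was followed here in spinal cord RNA on the MG U74Av2 array, through the probe sets annotated to Anxa1, Anxa2, Anxa3, Anxa4, Anxa5, Anxa6, Anxa7 and Anxa11. Of these 8 genes, 7 had 10 probe sets of their own, out of 8251 genes and 10833 probe sets with 1 gene symbol. Anxa1 had 3 probe sets, Anxa7 had 2 and the others 1 each. The only probe set annotated to Anxa11 was also annotated to the predicted genes Gm2274 and Gm2260, so its signal belongs to no single gene and it is described separately.

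Experimental autoimmune encephalomyelitis (EAE) is an animal model of multiple sclerosis, induced here in female SJL/J mice of 8 to 12 weeks by a subcutaneous injection of a peptide of PLP, a myelin protein. Control mice of the same strain, sex and age received vehicle only. The paper's EAE method also gives Complete Freund's adjuvant with the peptide and injections of pertussis toxin, and the paper calls the array controls healthy. Where controls did not receive adjuvant and toxin, these and EAE cannot be told apart either. EAE mice were killed at a score of 2.5 to 3.0 (average grade 2.5) on days 12 to 14 (EAE array 2), day 14 (EAE arrays 1 and 4), day 15.5 (EAE array 5) and day 17 (EAE array 3). They had also received murine serum albumin (0.1% in 100 µl) intravenously 3 hours earlier, which the labels do not give for controls, so albumin and EAE cannot be told apart. Each array held RNA pooled from 2 animals, which gave 5 EAE arrays (10 mice) and 3 control arrays (6 mice). The values are log2 signals as the authors normalized them, and differences are EAE minus control on the log2 scale from a linear model with treatment and batch, in which the 3 batches that hold both groups decide the difference.

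Markers of the cell types in the samples moved between the groups. For the counts that follow, 8.26% of all 12422 probe sets were higher and 11.4% lower (limma, adjusted p below 0.05). No marker is listed at 0, since the normalized scale has no 0. Of 18 markers of macrophages and microglia 17 were higher in EAE and 0 lower (median difference 2.22), and their summed linear signal was 11401 to 15863 in EAE arrays and 2147 to 2238 in control arrays. Of 12 neutrophil markers 7 were higher and 0 lower (summed signal 2610 to 4568 against 620 to 653). Of 11 T cell markers 5 were higher and 0 lower (642 to 711 against 558 to 588), and of 6 B cell markers 0 passed the test (492 to 559 against 520 to 677). Of 10 neuronal markers 0 were higher and 6 lower (8655 to 9561 against 13710 to 14130). Of 8 oligodendrocyte markers 0 were higher and 3 lower (8410 to 10614 against 11218 to 12499), and of 8 astrocyte markers 1 was higher and 0 lower. Of 9 endothelial markers 3 were higher and 0 lower (1095 to 1334 against 861 to 997). The median difference of the endothelial markers was -0.032. For 2 of the 9 every EAE array lay below every control array, which held for 15.1% of all probe sets. Of 7 markers of meninges and fibroblasts 1 was higher and 0 lower, and of 2 Schwann cell markers 1 was higher and 0 lower, with the mean log2 signal of both lists above the controls in every EAE array (6.70 to 7.13 against 6.57 to 6.67, and 7.40 to 8.02 against 7.22 to 7.38). Of 7 markers of skeletal muscle and 3 of red blood cells 0 passed. Fewer cells of a type and less RNA per cell cannot be told apart in whole spinal cord, nor can more cells and more RNA per cell.

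Anxa1, Anxa2, Anxa3 and Anxa4 were higher in EAE, by 3.20, 1.25, 2.12 and 1.15 on the log2 scale, while Anxa5, Anxa6 and Anxa7 did not pass the test, with differences between -0.10 and -0.0058. Of the 10 probe sets of single annexins, 6 were higher and 0 lower (limma, adjusted p below 0.05). Over all 12422 probe sets tested, 8.26% were higher and 11.4% lower. In the same 6 probe sets every EAE array lay above every control array, which held for 10.9% of all probe sets, and in 0 of the 10 every EAE array lay below every control array, which held for 15.1% of all. With each probe set's own variance, unmoderated, the same model called 0 of the 10 (5 at an unadjusted p under 0.05) and 1 of all 12422 probe sets.

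**Figure D1:**
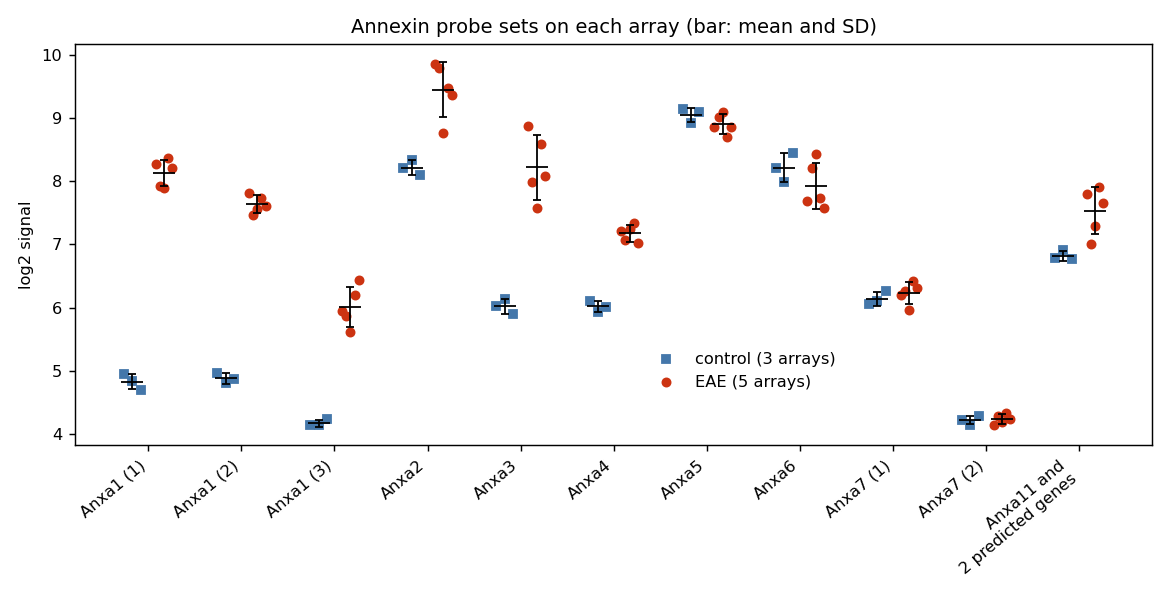
Log2 signal of the 10 probe sets of single annexins, and of the probe set shared by Anxa11 and 2 predicted genes, on each of 3 control arrays (squares) and 5 EAE arrays (circles), with group means and SDs. Probe sets of 1 gene are numbered by their mean over the 8 arrays. For Anxa1 (1) EAE arrays range from 7.90 to 8.36 and controls from 4.70 to 4.95, while for Anxa5, Anxa6 and Anxa7 the groups overlap.

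Anxa1, which acts on formyl peptide receptors and is induced by glucocorticoids, had the largest difference of the family. Its probe set with the highest mean was at 8.27, 7.92, 7.90, 8.36 and 8.21 in EAE arrays 1 to 5 and at 4.95, 4.84 and 4.70 in control arrays 1 to 3. The lowest EAE array thus stood 2.95 above the highest control array, and the control values lay near the dim end of the array's scale (16.4% of all probe sets had a lower control mean). The EAE mean was 8.13 ± 0.21 (SD, n = 5) and the control mean 4.83 ± 0.12 (SD, n = 3). The fitted difference was 3.20 (standard error 0.0758, adjusted p = 0.000110 from limma), or 9.18-fold (95% interval 8.02 to 10.5). With control values this dim, the size of the fold is uncertain. The exact permutation p was 0.0179, two-sided, the smallest that the 56 regroupings of 8 arrays can give, as it was for each of the 6 higher probe sets.

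The other probe sets of Anxa1 differed in the same direction by smaller amounts. The second was at 7.82, 7.46, 7.56, 7.73 and 7.61 in EAE and 4.97, 4.81 and 4.87 in control (difference 2.73, standard error 0.0726, adjusted p = 0.000143 from limma). The third was at 5.95, 5.86, 5.61, 6.19 and 6.43 in EAE and 4.14, 4.14 and 4.24 in control (difference 1.64, standard error 0.105, adjusted p = 0.00118 from limma). In both, the groups did not overlap. The control values of both were also at the dim end of the scale (17.7% and 3.77% of all probe sets had a lower control mean). The sizes of their differences are thus uncertain too, and the sizes of the 3 probe sets are not set against each other. The first and second carry the array's mark for probes that can also match related sequences and the third its mark for an incomplete set of probes. A contribution of other transcripts was not tested.

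Anxa3, an annexin of neutrophils and other myeloid cells, was at 8.88, 7.98, 7.58, 8.59 and 8.09 in EAE arrays 1 to 5 and at 6.03, 6.14 and 5.90 in control. Every EAE array was above the controls, but the EAE arrays spanned 1.30, the widest range among the annexin probe sets. The means were 8.22 ± 0.51 (SD, n = 5) and 6.02 ± 0.12 (SD, n = 3). The fitted difference was 2.12 (standard error 0.238, adjusted p = 0.00610 from limma), 4.36-fold with an interval of 2.86 to 6.65, and within batches 1, 2 and 3 it was 2.85, 1.85 and 1.68.

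Anxa2, which forms a complex with S100a10 and assembles plasminogen and its activator at the cell surface, was at 9.85, 9.79, 8.76, 9.47 and 9.37 in EAE and 8.21, 8.34 and 8.10 in control. EAE array 3, from day 17, was the lowest EAE array by 0.61 and still lay above all controls. The means were 9.45 ± 0.43 (SD, n = 5) and 8.22 ± 0.12 (SD, n = 3), with a fitted difference of 1.25 (standard error 0.199, adjusted p = 0.0154 from limma), 2.38-fold with an interval of 1.67 to 3.39. The difference was 1.65, 1.44 and 0.66 within batches 1, 2 and 3. Without EAE array 2 or control array 2 it was 1.16 and did not pass (adjusted p = 0.0688 from limma). Such a fit has 1 residual degree of freedom, and fewer of all probe sets passed in it (710 higher, 571 lower).

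Anxa4, an annexin of epithelia and other cells that binds membranes in the cytoplasm, had the most even difference across the batches, at 1.10, 1.13 and 1.23. It was at 7.21, 7.07, 7.24, 7.35 and 7.02 in EAE and 6.11, 5.93 and 6.01 in control, with no overlap. The means were 7.18 ± 0.13 (SD, n = 5) and 6.02 ± 0.09 (SD, n = 3), and the fitted difference was 1.15 (standard error 0.0669, adjusted p = 0.000897 from limma), 2.22-fold with an interval of 1.97 to 2.50. Between Anxa2 and Anxa4 the order changed with the batch, Anxa2 being the larger in batches 1 and 2 and Anxa4 in batch 3. The difference of Anxa3 exceeded that of Anxa2 in each of the 3 batches, and relative to the control mean in all 5 EAE arrays. The difference between genes was not tested.

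Anxa5, the phosphatidylserine-binding protein used to stain dying cells, was at 8.86, 9.01, 9.10, 8.70 and 8.86 in EAE and 9.14, 8.92 and 9.09 in control. The groups overlapped, and the difference was -0.059 (standard error 0.0941, adjusted p = 0.735 from limma). Its 95% interval allows a fold change of 0.81 to 1.13.

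Anxa6, the large annexin with a duplicated core that takes part in endocytosis and cholesterol traffic, was at 7.69, 8.21, 8.42, 7.73 and 7.58 in EAE and 8.20, 7.98 and 8.45 in control. EAE arrays 1, 4 and 5 lay below all controls and EAE arrays 2 and 3 among them. The difference was -0.10 (standard error 0.151, adjusted p = 0.705 from limma) with a fold interval of 0.71 to 1.22, and it was -0.52 in batch 1, 0.23 in batch 2 and -0.024 in batch 3.

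Anxa7, also called synexin for its part in membrane fusion, had a brighter probe set at 6.19, 6.26, 5.96, 6.42 and 6.31 in EAE and 6.06, 6.10 and 6.27 in control, with a difference of -0.0058 (standard error 0.114, limma adjusted p = 0.984) and a fold interval of 0.81 to 1.22. Its dimmer probe set stayed between 4.14 and 4.33 in all 8 arrays, at the dim end of the scale (4.27% of probe sets had a lower control mean), and its difference was -0.018 (adjusted p = 0.909 from limma). Neither showed a group apart from the other.

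The probe set shared by Anxa11, an annexin of RNA granules and vesicle transport, and the predicted genes was at 7.80, 7.01, 7.29, 7.91 and 7.66 in EAE and 6.78, 6.91 and 6.77 in control. No EAE array fell among the controls, although EAE array 2 exceeded the highest control by only 0.098. With batch in the model the difference of 0.55 did not pass (standard error 0.179, adjusted p = 0.101 from limma, exact permutation p = 0.0357). It did without the batch term (0.71, adjusted p = 0.0340) and with batch as a random block (0.68, adjusted p = 0.0272), and within batches 1, 2 and 3 the difference was 1.02, 0.098 and 0.53. Without EAE array 1 or control array 1 it was 0.31 (adjusted p = 0.195), and over each array left out it ranged from 0.31 to 0.77 (adjusted p from 0.0534 to 0.308). Its highest values were those of EAE arrays 4 and 1.

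**Figure D2:**
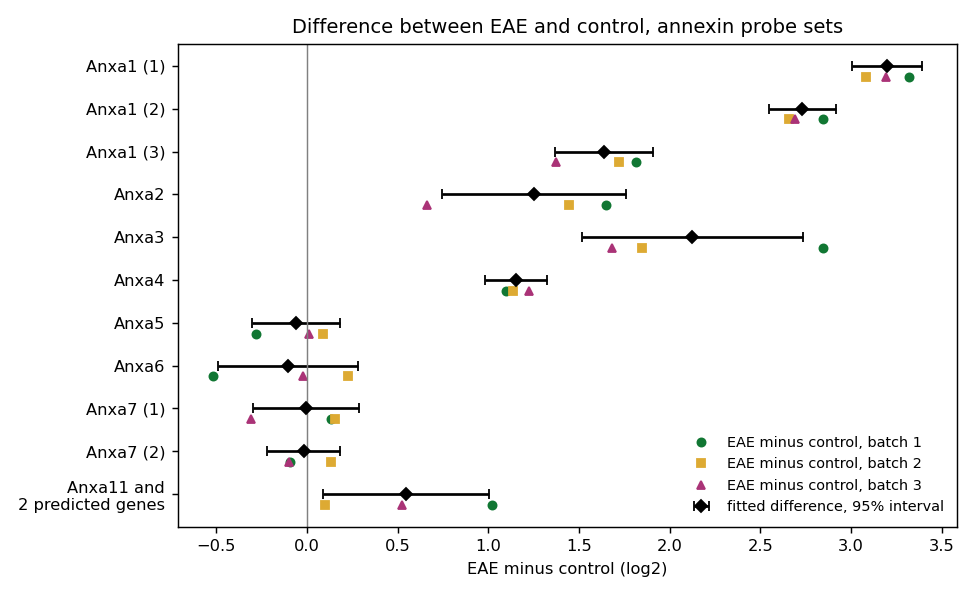
Difference between EAE and control (log2) for each annexin probe set. Diamonds give the fitted difference with its 95% confidence interval, and the coloured symbols below each give the EAE array minus the control array of batches 1, 2 and 3. The intervals of Anxa1 to Anxa4 lie above 0, from 0.74 at their lowest, and those of Anxa5, Anxa6 and Anxa7 include 0.

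The first Anxa1 probe set and Anxa3 ordered the EAE arrays nearly alike, and the other annexin genes ordered them otherwise. Relative to the control mean, the first Anxa1 probe set was at 3.44, 3.09, 3.07, 3.53 and 3.38 in EAE arrays 1 to 5, Anxa3 at 2.85, 1.96, 1.56, 2.57 and 2.07, and Anxa2 at 1.64, 1.57, 0.55, 1.26 and 1.15. EAE array 3, from the latest day, was the lowest of the 5 for the first Anxa1 probe set (only just below EAE array 2) and the third. It was also the lowest for Anxa2, Anxa3 and the brighter Anxa7 probe set. For the second Anxa1 probe set EAE array 2 was the lowest, at 7.46 against 7.56 in EAE array 3. EAE arrays 1 and 4 were the highest for the first and second Anxa1 probe sets and Anxa3, and EAE arrays 5 and 4 for the third Anxa1 probe set. Anxa5 and Anxa6 were highest in EAE array 3, and Anxa4, at 1.19, 1.05, 1.22, 1.33 and 1.00, was lowest in EAE array 5.

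Marker lists differed among the same arrays. The mean of the endothelium list was above the control mean by 0.35, 0.26, 0.18, 0.46 and 0.33 in EAE arrays 1 to 5, the order of Anxa1. The mean of the meninges and fibroblast list was above the control mean by 0.40, 0.28, 0.076, 0.51 and 0.16, also highest in EAE arrays 4 and 1 and lowest in EAE array 3. The macrophage and microglia list had a mean rise of 2.22, 2.02, 2.40, 2.23 and 2.06 and the neutrophil list of 1.51, 1.55, 1.83, 1.64 and 1.83, so that the first was highest in EAE array 3 and the second in EAE arrays 3 and 5. The part of these cell types in the annexin values was not tested. With 5 EAE arrays no relation to the day was tested.

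**Figure D3:**
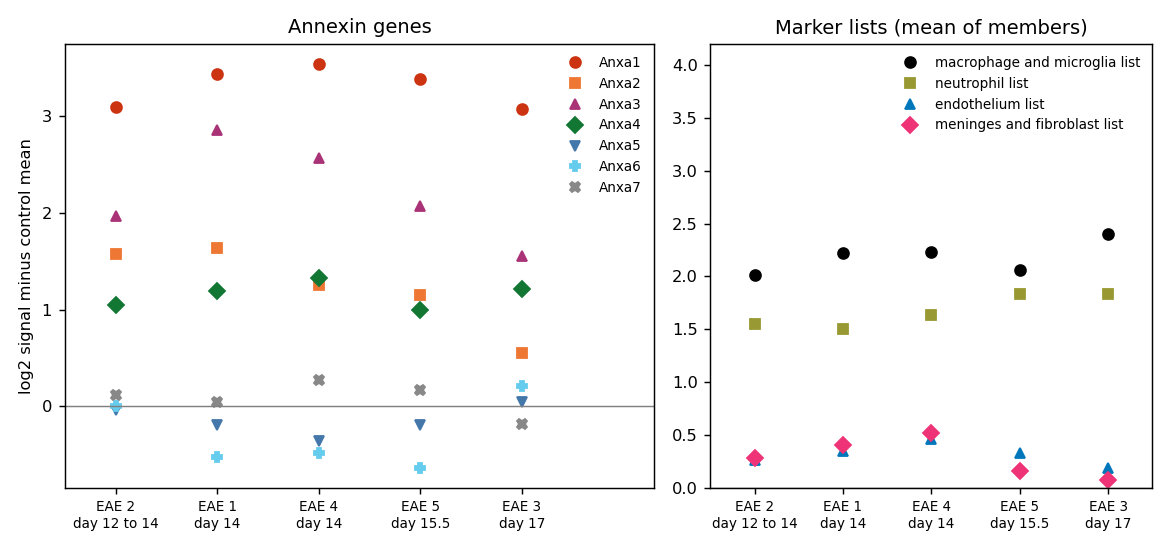
Log2 signal of each annexin gene (left, probe set with the highest mean) and mean of 4 marker lists (right) in each EAE array, minus the mean of the 3 control arrays, ordered by EAE day. Anxa2 and Anxa3 are lowest on day 17, at 0.55 and 1.56, where the macrophage and microglia list is highest, at 2.40, and the endothelium list lowest, at 0.18. That array also had the smallest Gapdh gap between 3' and 5' signal, at 0.46.

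Signs of RNA quality moved with some of these values. Gapdh signal at the 3' end exceeded that at the 5' end, a gap that grows as RNA degrades, by 1.46 (log2) on EAE array 1, by 2.07 on EAE array 4 and by 0.46 to 0.97 on the others. For actin it was also highest in EAE array 4, at 2.79, while control arrays 1 and 2, at 2.20 and 2.29, were close to EAE array 1. EAE array 3 had the smallest gap of all 8 arrays for Gapdh (0.46) and for actin (1.11). EAE arrays 1 and 4 were also those with the highest Anxa1 (first probe set) and Anxa3, and EAE array 4 had the lowest Anxa5. The Gapdh gap was 1.46, 0.65, 0.46, 2.07 and 0.78 in EAE arrays 1 to 5. The actin gap was 2.36, 1.63, 1.11, 2.79 and 1.83. Both gaps thus ordered all 5 EAE arrays as the first Anxa1 probe set did. Among genes that work with the annexins, EAE array 4 was the lowest of the EAE arrays for S100a10, S100a6, S100a4 and S100a1, while EAE arrays 1 and 4 were the highest for Ahnak, Sdcbp and Pros1. In the model with batch, EAE array 4 adds nothing to the difference, because its batch holds no control. In the model without batch, where it does, leaving out EAE arrays 1 and 4 gave differences of 3.18, 1.09, 1.86 and 1.09 for Anxa1, Anxa2, Anxa3 and Anxa4, which passed (adjusted p between 4.995e-06 and 0.0239 from limma). With all 8 arrays that model gave 3.30, 1.23, 2.20 and 1.16. In the model with batch, leaving out EAE array 1 gave 3.14, 1.05, 1.76 and 1.18, beside 3.20, 1.25, 2.12 and 1.15 with all arrays. The part of RNA quality in these values was not tested.

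The start regions of the annexin genes are shown for 3 genes that were higher and for Anxa5, which did not pass, to set their sequences beside their values. RefSeq promoters (GRCm38.p6, 250 bases before to 50 after a start site, written 5′ to 3′ along the gene's strand) were at hand for 6 of the 8 genes, not for Anxa3 and Anxa6. Capitals mark matches, on either strand, to 8 motifs: the TATA box TATAAA, the CCAAT box CCAAT, the GC box GGGCGG, the AP-1 site TGANTCA, the STAT site TTCNNNGAA, the interferon response motif GAAANNGAA, the NF-kB motif GGGNNTTTC and the ETS motif GAGGAAGT of PU.1. Of the 2 Anxa4 starts the upstream one is shown, and in its sequence and those of the others a match is a description of letters, not a site of binding.
Anxa1, chr19:20390622-20390921, minus strand: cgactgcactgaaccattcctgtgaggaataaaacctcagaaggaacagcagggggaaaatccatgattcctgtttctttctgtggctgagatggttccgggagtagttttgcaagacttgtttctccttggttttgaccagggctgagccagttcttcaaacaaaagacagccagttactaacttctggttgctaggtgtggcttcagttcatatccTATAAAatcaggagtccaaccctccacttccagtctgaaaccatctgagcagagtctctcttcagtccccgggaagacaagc
Anxa2, chr9:69453433-69453732, plus strand: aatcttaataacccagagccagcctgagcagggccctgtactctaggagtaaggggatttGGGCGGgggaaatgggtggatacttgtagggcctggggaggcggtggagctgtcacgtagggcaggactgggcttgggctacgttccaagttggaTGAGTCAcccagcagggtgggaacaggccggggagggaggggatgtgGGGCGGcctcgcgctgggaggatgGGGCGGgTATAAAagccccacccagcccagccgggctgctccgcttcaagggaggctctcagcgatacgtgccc
Anxa4, chr6:86793535-86793834, minus strand: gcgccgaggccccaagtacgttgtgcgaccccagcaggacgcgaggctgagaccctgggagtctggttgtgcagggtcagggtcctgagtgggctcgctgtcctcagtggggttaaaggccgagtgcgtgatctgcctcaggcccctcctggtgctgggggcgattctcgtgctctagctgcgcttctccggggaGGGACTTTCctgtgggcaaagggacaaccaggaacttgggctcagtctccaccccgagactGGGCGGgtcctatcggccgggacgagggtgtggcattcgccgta
Anxa5, chr3:36475838-36476137, minus strand: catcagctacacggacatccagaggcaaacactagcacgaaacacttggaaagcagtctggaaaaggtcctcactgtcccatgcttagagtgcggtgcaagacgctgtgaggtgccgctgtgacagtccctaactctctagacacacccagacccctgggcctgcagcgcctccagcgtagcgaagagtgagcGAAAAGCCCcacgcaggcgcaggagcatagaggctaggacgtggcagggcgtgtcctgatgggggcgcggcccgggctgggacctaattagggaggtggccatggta

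The promoter of Anxa1, the gene with the largest rise, held 1 match, a TATA box at position -32 from the start, and 3 CpG dinucleotides, against a median of 7 over all 32851 promoters. A TATA box was found in 13.6% of all promoters. Anxa2 had a TATA box at position -17, which overlaps no other match, 3 GC boxes (in 35.7% of all promoters 1 or more) and an AP-1 match at position -95 (7.81%). The upstream Anxa4 start had an NF-kB match at position -55, as 4.36% of all promoters did on either strand, and a GC box at position 7. The downstream Anxa4 start, at chr6:86775065-86775364 on the minus strand, held 0 matches to the 8 motifs. The Anxa5 promoter, of a gene that did not pass the test, also held an NF-kB match, at position -57 on the opposite strand, and no other. None of the 4 promoters shown held a match to the CCAAT, STAT, interferon or ETS motif, which were found in 37.4%, 8.30%, 8.56% and 3.20% of all promoters. No match says only that these letters are not in these windows.

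Genes that work with the annexins were followed in 8 lists of 84 genes, of which 59 were measured by a probe set of 1 symbol. Of these, 20 (33.9%) were higher and 4 (6.78%) lower, beside 8.26% and 11.4% of all probe sets, and the median difference over all probe sets was -0.046. The units differ, since each gene was read from its brightest probe set and all probe sets include dim ones. In a fit of brighter probe sets only, 714 of 6211 were higher and 1233 lower. When an array of batch 3 was left out, from either group, 10 genes passed as higher and 1 as lower, and when an array of batch 2 was left out 13 passed as higher and 3 as lower. Fits without an array of batch 1, 2 or 3 lose that pair and have 1 residual degree of freedom, and calls fell over all probe sets too. Without an array of batch 3, 521 of all probe sets were higher and 225 lower, and without 1 of batch 2 710 and 571. The lists were chosen for their link to the family, and several hold genes of myeloid cells, whose markers rose as given above. The part of a change in cell numbers was not tested.

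**Figure D4:**
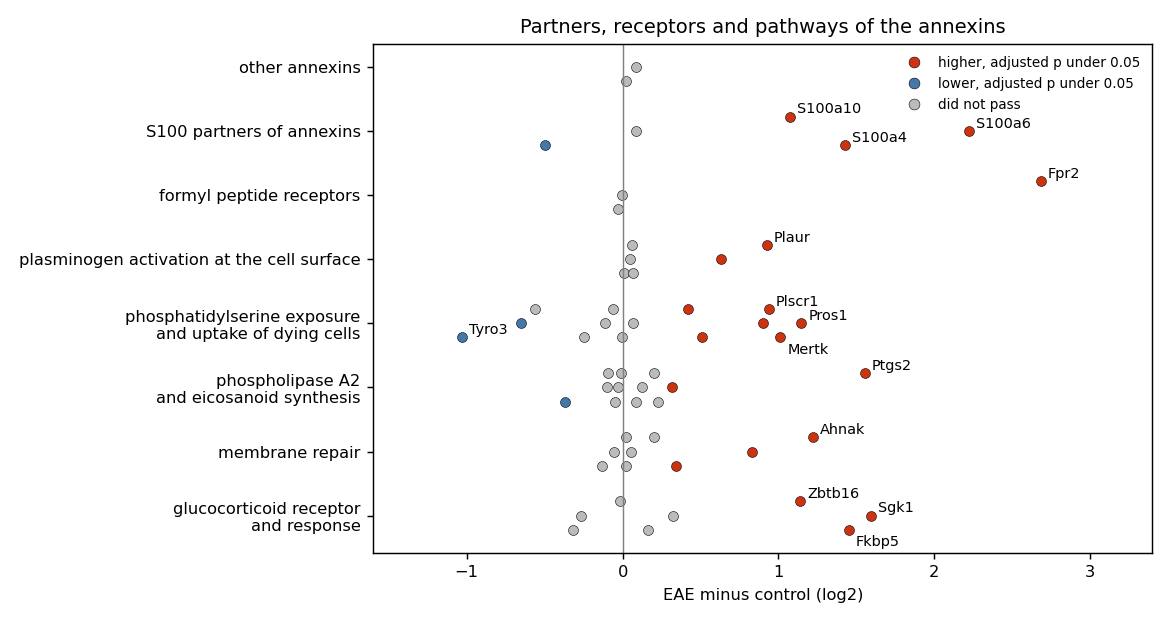
Difference between EAE and control (log2) for each of the measured genes in 8 lists of annexin partners, receptors and pathways, 1 circle a gene, coloured by the test at an adjusted p under 0.05. Fpr2 stands highest at 2.68 and Tyro3 lowest at -1.03, and most genes of the plasminogen, phospholipase and membrane repair lists lie near 0.

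Among the S100 proteins, small calcium sensors that bind annexin tails, 3 of 5 measured were higher and 1 lower (median difference 1.07). S100a10, the partner of Anxa2, was at 7.87, 8.24, 8.15, 7.42 and 8.09 in EAE arrays 1 to 5 and 7.08, 7.00 and 6.95 in control. Its groups did not overlap, and the difference of 1.07 (standard error 0.109, limma adjusted p = 0.00471) stands beside 1.25 for Anxa2. The arrays differed in order, since EAE array 3 was the lowest for Anxa2 and EAE array 4, with the largest Gapdh gap, for S100a10. Without EAE array 3 or control array 3 the adjusted p of S100a10 was 0.0504. S100a6, which binds Anxa2 and Anxa11, was at 9.16, 9.43, 10.31, 8.02 and 9.49 in EAE and 7.74, 7.43 and 7.06 in control (difference 2.22, standard error 0.346, adjusted p = 0.0145 from limma, and 0.0537 with either array of batch 2 left out). S100a4 differed by 1.42 (adjusted p = 0.00185 from limma). S100b, mainly of astrocytes and oligodendrocytes, was lower by -0.50 (adjusted p = 0.0143 from limma, and 0.0832 with either array of batch 3 left out).

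Of the formyl peptide receptors, through which Anxa1 acts on leukocytes, 3 were measured and 1 was higher. Fpr2, a receptor of Anxa1 on myeloid cells, was at 7.35, 7.60, 7.93, 8.14 and 8.01 in EAE and 4.96, 4.87 and 5.00 in control. All EAE arrays lay above the controls by more than 2, and the fitted 2.68 (standard error 0.119, limma adjusted p = 0.000441) was the largest among the related genes. The control values of Fpr2 were nearly as dim as those of the first Anxa1 probe set, so the size of its difference is uncertain too. The other receptors measured, Fpr-rs3 and Fpr-rs4, had differences of -0.0063 and -0.030. Both were dim in all 8 arrays (4.78 to 4.89 and 4.63 to 4.97), so these differences cannot show whether the genes changed.

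Of 6 genes of plasminogen activation 2 were higher and 0 lower (median difference 0.063). The urokinase receptor Plaur was higher by 0.92 (standard error 0.120, limma adjusted p = 0.00915) and the plasminogen receptor Plgrkt by 0.63 (standard error 0.0651, adjusted p = 0.00491 from limma), with no overlap between the groups for either. The others, among them plasminogen and both of its activators, did not pass. Plasminogen was dim in every array (4.57 to 4.76).

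Of 14 genes of phosphatidylserine exposure and uptake of dying cells 6 were higher and 2 lower (median difference 0.031). Pros1, the bridging protein S, had a difference of 1.15 (adjusted p = 0.0224 from limma), the receptor kinase Mertk of 1.01 (adjusted p = 0.00771) and the scramblase Plscr1 of 0.94 (adjusted p = 0.00873). The related kinase Tyro3 was lower in every EAE array, at 7.31, 7.63, 8.40, 7.63 and 7.38, than in the controls, at 8.64, 8.67 and 9.13 (difference -1.03, adjusted p = 0.00777 from limma). Pros1 did not pass without array 2 or 3 of either group (adjusted p = 0.0517 and 0.0875), nor Mertk without EAE array 3 or control array 3 (0.0587).

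Of 12 genes of phospholipase A2 and eicosanoid synthesis, a pathway that Anxa1 is known to restrain, 2 were higher and 1 lower (median difference 0.036). Ptgs2, the inducible cyclooxygenase, was at 6.06, 5.64, 5.51, 5.93 and 6.10 in EAE and 4.14, 4.15 and 4.26 in control, with no overlap and a difference of 1.55 (standard error 0.140, adjusted p = 0.00338 from limma). Its control values were about as dim as those of the third Anxa1 probe set, so the size of its difference is uncertain. The prostaglandin E synthase Ptges was higher by 0.31 (adjusted p = 0.0289 from limma) and the phospholipase Pla2g6 was lower, at -0.37 (adjusted p = 0.0189). Neither of these passed when an array of batch 1, 2 or 3 was left out (adjusted p between 0.0541 and 0.140).

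Of 9 membrane repair genes 3 were higher and 0 lower (median difference 0.054). Ahnak, a giant scaffold that binds Anxa2 and S100a10, was higher by 1.22 (standard error 0.0676, adjusted p = 0.000812 from limma), at 9.40, 9.06, 9.04, 9.50 and 8.60 in EAE and 8.14, 7.92 and 7.77 in control. Sdcbp, or syntenin, was higher by 0.83 (adjusted p = 0.0197 from limma, and 0.122 with either array of batch 3 left out) and the Alix gene Pdcd6ip by 0.34 (adjusted p = 0.0251, and 0.0637 to 0.116 without an array of batch 1, 2 or 3).

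Of 8 genes of the glucocorticoid receptor and its response 3 were higher and 0 lower (median difference 0.24). The kinase Sgk1 was higher by 1.59 (standard error 0.157, adjusted p = 0.00430 from limma), the chaperone Fkbp5 by 1.45 (standard error 0.108, adjusted p = 0.00185) and the transcription factor Zbtb16 by 1.14 (standard error 0.177, adjusted p = 0.0145, and 0.0646 and 0.0675 without an array of batch 2 or 3). The receptor gene itself, Nr3c1, lay below the controls in every EAE array, but its difference of -0.32 did not pass (adjusted p = 0.164 from limma). The response genes Tsc22d3 and Dusp1, at -0.016 and 0.16, did not pass either. Of the other annexins on the array Anxa8 had a difference of 0.088 (adjusted p = 0.484 from limma) and Anxa10 of 0.021 (adjusted p = 0.872). Both were dim in every array (4.76 to 4.93 and 4.09 to 4.30), so these differences cannot show whether the genes changed.

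The genes whose log2 signals followed each higher annexin most closely over the 8 arrays are given as a description, since the arrays fall into 2 groups and any gene that separates them gains a high correlation. For Anxa1 these were the fibrinogen-like Fgl2 (Pearson r = 0.9995) and the complement protease C1ra (0.9987), and 354 probe sets of other genes were above 0.95. For Anxa3 they were the sterol hydroxylase Cyp7b1 (0.9987) and Ms4a6b (0.9964), and for Anxa4 the MHC class I chain H2-K1 (0.9961) and Pqlc3 (0.9945), with 220 and 312 above 0.95. For Anxa2 they were the cell division genes Cdc20 (0.9862) and Aurkb (0.9836), with 40 above 0.95.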

How the data were processed

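Whole spinal cords were measured on 8 MG U74Av2 arrays, 5 EAE and 3 control, each of RNA pooled from 2 animals. The deposited log2 values were made by the authors in Partek with RMA and quantile normalization, adjustment for GC content and a log transform of base 2 (versions not given in the sources used here), and they were not normalized again. Array medians were 6.08 to 6.13, and the number of arrays limits the precision. Groups and batches came from the labels, and batch equals the replicate number.

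For all 12422 probe sets (66 control probe sets left out, no filter), limma 3.58.1 (lmFit and eBayes, R 4.3.3) fitted treatment with batch as a fixed block, after the study's methods, on 2 residual and 3.05 prior degrees of freedom. The p values, two-sided, were adjusted over them after Benjamini and Hochberg (threshold 0.05). Batches 4 and 5 hold no control, so EAE arrays 4 and 5 add nothing to the blocked difference. Equal numbers mark a shared batch in the labels, and deviations from the group means of equally numbered arrays correlated at 0.302, -0.231 and 0.412. Of the probe sets, 10833 had 1 symbol in the array's annotation, 396 several and 1193 none. In lists a gene was read from its probe set of highest average signal. A single value was also tested by exact permutation over 56 regroupings.

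The members, lists and tests were chosen with earlier results of these data known. Named are every annexin probe set, for each list at most 4 passing genes by size of change (2 genes where none passed), and the 2 genes closest to each higher annexin by Pearson correlation. S100a1, Fpr-rs3, Fpr-rs4, Nr3c1, Tsc22d3, Dusp1, plasminogen and its activators were named outside this rule, after their values were seen. The procedure was tested on simulated data. Alternatives were no batch term, a random block, no moderation, other variance priors, array weights, median centring, a second quantile normalization, a filter on dim probe sets, the mean of a gene's probe sets, each array left out, and, chosen after seeing the data, EAE arrays 1 and 4 left out. Figures were drawn with matplotlib 3.10.9.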

Additional observations from a re-analysis of the deposited data

How the results depend on the processing

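The count of 6 higher and 0 lower annexin probe sets was 6 and 0 without the replicate block (batch term), with batch as a random block, an intensity trend, a robust prior, median centring, further quantile normalization, array weights and EAE arrays 1 and 4 left out (without the block, or with it, where this equals leaving out EAE array 1). It was 5 and 0 with brighter probe sets only, where the third Anxa1 probe set was not tested, and 5 to 6 when 1 array was left out. Without the replicate block 1062 probe sets were higher and 1278 lower, and among annexins only the call of the probe set shared by Anxa11 changed. Without moderation of the variances, on 2 residual degrees of freedom, 0 annexin probe sets, 0 annexin genes and 0 related genes in either direction were called, and over all probe sets 1 higher and 0 lower (2656 at an unadjusted p under 0.05). With 1 array left out the counts ranged from 521 to 1026 higher and 225 to 1412 lower over all probe sets, and from 10 to 20 higher and 1 to 4 lower among the related genes. The 4 higher annexin genes were 3 to 4 with 1 array left out, and 4 with the mean of the probe sets of a gene.

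The differences of Anxa5, Anxa6 and Anxa7, none of which passed, changed sign in some settings, while that of the probe set shared by Anxa11 kept its sign in all 19 (0.31 to 0.77). Anxa5 was at 0.035 with further quantile normalization, at 0.050 with EAE arrays 1 and 4 left out and at -0.13 to 0.050 with 1 array left out. Anxa6 was at 0.10 with EAE arrays 1 and 4 left out and at -0.27 to 0.10 with 1 array left out. The brighter Anxa7 probe set was at 0.086 without the replicate block, 0.066 with a random block, 0.034 with EAE arrays 1 and 4 left out and no block, and -0.086 to 0.14 with 1 array left out. The dimmer one was at 0.015, 0.0078, 0.014 and -0.095 to 0.021 in these settings, and at 0.018 with EAE arrays 1 and 4 left out with the block. The cause was not tested.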
